A study of Mus musculus with 7 samples.

Results

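Collagens, laminin chains and 9 other secreted matrix genes were read as a measure of fibroblast and matrix RNA in libraries of sorted regulatory T cells (Tregs). The members were the gene rows whose symbol is that of a collagen chain or a laminin chain, together with Dcn, Lum, Fn1, Sparc, Fbn1, Bgn, Postn, Mgp and Eln. They numbered 64 of the 24084 genes in the table, 44 collagens, 11 laminin chains and 9 others. Tregs are the CD4 T cells defined by the transcription factor Foxp3. The study compared Tregs of telogen skin, where hair follicles rest, with Tregs of skin-draining lymph nodes (SDLN), and had 4 skin and 3 SDLN libraries. All mice were Foxp3-DTR animals aged 6 weeks, whose Foxp3 allele carries the diphtheria toxin receptor and a green fluorescent protein, so both groups share that allele. No treatment is named for either group. Neither the gates of the sort nor how many animals went into a library is stated in the sources used here, and p-values therefore measure the spread between these libraries, which may be partly technical. Skin 1 is labelled as skin in its title and source, but its tissue tag gives the lymph node.

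Collagens are helical trimers of alpha chains. Collagens I, III and V form the fibrils of the dermis, collagen IV forms the mesh of basement membranes, and collagen VI forms beaded filaments around cells. Laminins join an alpha, a beta and a gamma chain into the other main network of basement membranes. In skin these chains are made mainly by fibroblasts, vessel wall cells and, at the epidermal border, keratinocytes, and small proteoglycans such as decorin bind and space the fibrils.

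Gene counts per library were between 11009609 and 14785751, and genes with at least 1 count numbered 9690 to 12639 in skin and 13408 to 13845 in SDLN. A count of 3, used as the floor for a gene with no count, stood for 0.203 to 0.276 CPM (counts scaled to the library's total after TMM normalization). Foxp3 was present in every library, at 68.9 to 102.3 CPM in SDLN and 106.4 to 247.7 CPM in skin. The 9 T cell and Treg markers summed to 12060 to 13690 CPM in SDLN and to 14000, 13920, 8597 and 14480 CPM in skin 1 to 4, so skin 3 was the lowest of the 7 libraries. Skin 3 also stood apart over all genes. By a rule chosen after values were seen, at least 100 counts and a CPM at least 20 times that of every other library, 612 genes belonged to skin 3 (3.79% of the 16157 genes with a count) and at most 77 to any other library. Matrix genes and list counts are therefore given with and without skin 3.

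Matrix RNA was a trace of every library but 1. Matrix genes held 0.00482%, 0.00527% and 0.00563% of gene counts in SDLN 1, 2 and 3, and 0.0233%, 0.0511%, 0.548% and 0.0222% in skin 1, 2, 3 and 4. The Wilson 95% interval for skin 3 was 0.544% to 0.553%, and the intervals of the other libraries lay between 0.00447% and 0.0524%. These intervals cover counting error only. The 4 skin libraries lay above the 3 SDLN libraries, and skin 3 lay far above the other skin libraries. The skin mean was 0.161% with skin 3 and 0.0322% without it, against 0.00524% in SDLN. Skin 3 held 60378 of the 74799 matrix counts of all libraries, or 80.7%. In a bulk library, fewer cells of a type and less RNA per cell cannot be told apart.

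The remaining difference between the tissues was mostly 1 gene, Lamc1, the laminin-gamma1 chain shared by most laminins. It held 68.4%, 72.7% and 79.7% of matrix counts in skin 1, 2 and 4, 6.33% in skin 3 and 25.2% to 35.7% in SDLN. Without Lamc1, matrix genes summed to 31.0, 35.0 and 42.6 CPM in SDLN and to 81.1, 140.0, 4764 and 44.6 CPM in skin 1 to 4. Skin 4 then lay within 2 CPM of SDLN 3, and skin 3 held 92.2% of what remained.

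Of the 64 matrix genes, 10 had no count in any library, 6 had at most 9 counts in a library, and 48 reached 10 counts in at least 1 library. The 10 without a count were Col4a5, Col6a5, Col8a2, Col9a1, Col11a1, Col22a1, Col25a1, Col26a1, Col28a1 and Lama1. The 6 at trace level were Col2a1, Col4a3, Col4a6, Col9a2, Col14a1 and Mgp. Of the 54 with a count, 38 (70.4%) had their highest CPM in skin 3, against 3537 of all 16157 detected genes (21.9%). By contrast, 17 matrix genes (31.5% of those detected) met the rule for genes of skin 3 given above, and none met it in another library. Matrix genes with at least 1 count numbered 25 to 26 in SDLN, 18, 32 and 15 in skin 1, 2 and 4, and 47 in skin 3.

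**Figure D1:**
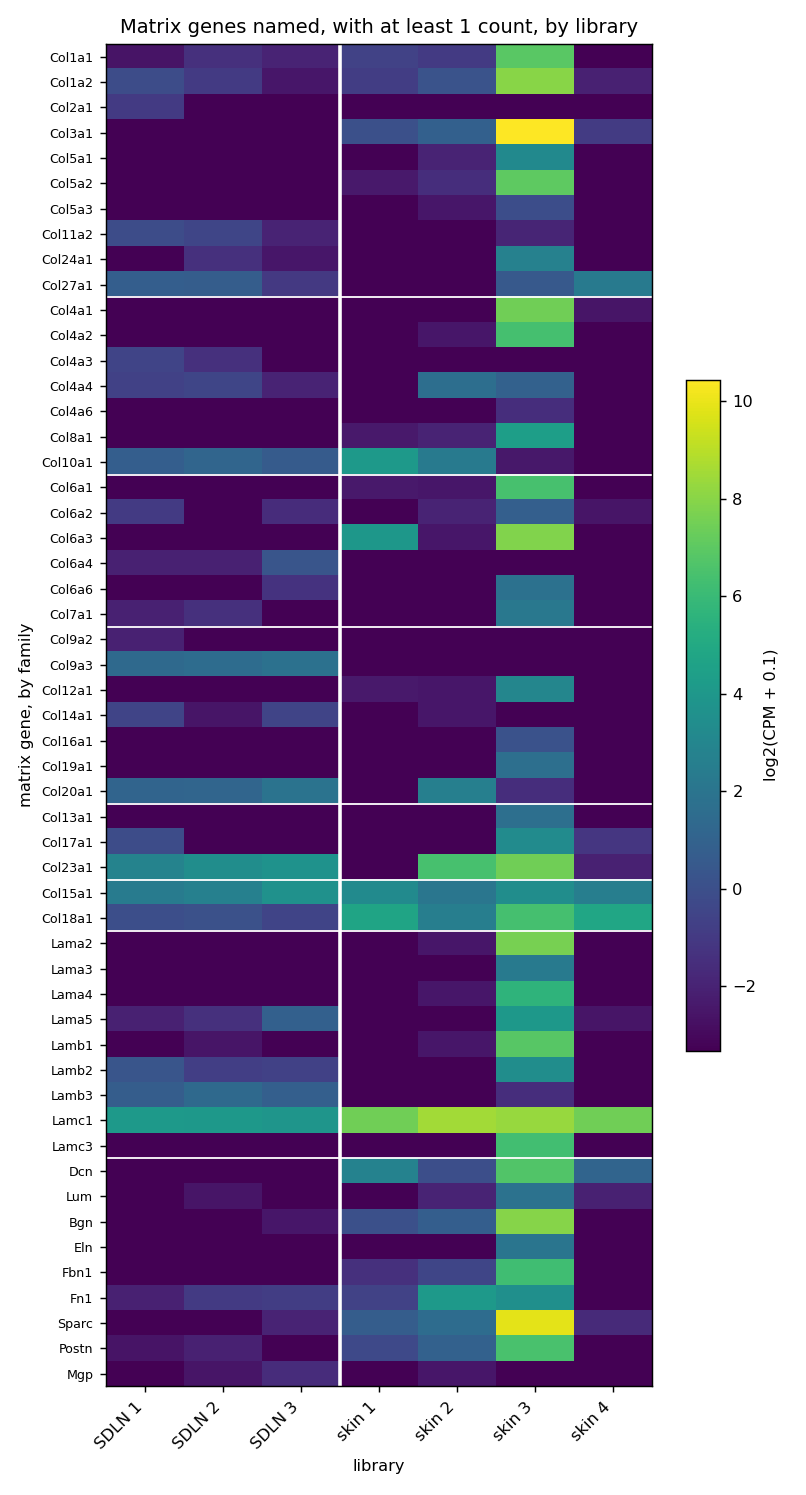
Level of each named matrix gene with at least 1 count (rows, grouped by family) in each library (columns), as log2(CPM + 0.1). Skin 3 is filled in nearly every family, Lamc1 is filled in all libraries, and most other cells are near the floor.

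The 4 matrix genes whose sequences follow had nearly all of their counts in skin 3, at 16481 (Col3a1), 2929 (Bgn), 2680 (Col6a3) and 2320 (Lama2) there, and they come from 4 families. Their promoters are shown because these genes were high in the same library. Each is the 250 bases before the RefSeq start site, 5′ to 3′ on the gene's own strand, from RefSeq on GRCm38.p6, and no annotated exon lies in them. They are chr1:45311288-45311537 (plus strand, Col3a1), chrX:73483351-73483600 (plus strand, Bgn), chr1:90843972-90844221 (minus strand, Col6a3) and chr10:27616943-27617192 (minus strand, Lama2). Capitals mark a match on either strand to the CCAAT box (CCAAT), the TATA box (TATAAA), the GC box (GGGCGG) or the AP-1 site (TGANTCA).
Col3a1: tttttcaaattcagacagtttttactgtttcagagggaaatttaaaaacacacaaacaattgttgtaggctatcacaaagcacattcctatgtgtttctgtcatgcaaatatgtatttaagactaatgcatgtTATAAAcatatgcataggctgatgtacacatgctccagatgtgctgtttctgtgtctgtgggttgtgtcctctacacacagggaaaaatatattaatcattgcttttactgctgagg
Bgn: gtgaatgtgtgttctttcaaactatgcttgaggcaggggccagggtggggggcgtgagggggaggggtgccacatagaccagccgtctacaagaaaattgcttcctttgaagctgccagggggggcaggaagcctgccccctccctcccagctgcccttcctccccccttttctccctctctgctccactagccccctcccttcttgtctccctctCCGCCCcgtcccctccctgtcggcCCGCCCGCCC
Col6a3: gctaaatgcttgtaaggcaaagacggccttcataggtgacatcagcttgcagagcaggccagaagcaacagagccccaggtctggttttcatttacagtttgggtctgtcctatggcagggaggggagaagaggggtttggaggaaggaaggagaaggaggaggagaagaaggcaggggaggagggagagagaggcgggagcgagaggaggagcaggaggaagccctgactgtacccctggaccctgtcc
Lama2: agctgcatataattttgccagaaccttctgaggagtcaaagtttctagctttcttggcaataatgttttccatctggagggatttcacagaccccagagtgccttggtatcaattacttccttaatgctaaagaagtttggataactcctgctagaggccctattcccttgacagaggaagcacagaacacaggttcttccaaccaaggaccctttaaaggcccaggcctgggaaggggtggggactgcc

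The 4 promoters had no searched motif in common. Col3a1 had 1 TATA match, whose first base lay at position -117 from the start. Bgn had 3 GC box matches, 2 of them overlapping next to the start, and Col6a3 and Lama2 had no match to the 4 motifs. RefSeq windows were found for 44 of the 64 matrix genes, 49 windows in all. A GC box was present in 53.1% of these windows and in 32.7% of all 32851 windows of that length. The CCAAT box was present in 28.6% against 33.8%, the TATA box in 12.2% against 12.4% and the AP-1 site in 2.04% against 6.75%. These are descriptions of letters, not of bound sites.

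The tissues were compared with edgeR's quasi-likelihood test over 11376 genes that passed a filter on low counts, at a Benjamini-Hochberg adjusted p under 0.05. Of the matrix genes, 15 passed the filter and 49 did not, among them 33 with at least 10 counts in a library. Of all tested genes, 7.24% were called, 3.28% higher and 3.96% lower in skin. Among matrix genes, 2 were higher in skin (Lamc1 and Col18a1), 1 was lower (Col9a3) and 12 did not pass. At an unadjusted p under 0.05 there were 7 higher and 2 lower, against 10% higher and 8.52% lower of all tested genes. DESeq2 called 2 matrix genes higher and 0 lower, against 8.66% and 4.76% of the 10657 genes it gave an adjusted p, and limma-voom 2 and 1, against 2.38% and 6.41% of all tested genes. A gene that passes the filter through 1 tissue alone had to differ, so these counts describe the 15 genes and not the 64. The median log2 fold change of the 15 was 2.71, also with genes absent from a tissue set at their bound, against 0.05 over all tested genes. Without skin 3, 11 matrix genes passed the filter, their median was 0.42 against -0.04 over all genes, and 11.3% of 11208 tested genes were called (4% higher, 7.33% lower). Lamc1 and Dcn were then higher, and Col9a3 and Lamb3 lower. Of these, Dcn, Col9a3 and Lamb3 entered that test through 1 tissue alone, which fixed their direction. With no filter on low counts, 1.6% of genes were called (1.16% higher, 0.433% lower), and of matrix genes Lamc1 alone (adjusted p = 0.00406). With neither the filter nor skin 3, 1.83% were called (1.34% higher, 0.488% lower), again with Lamc1 as the 1 matrix gene (adjusted p = 0.0114). The tissues did not overlap for 26.6% of tested genes, with skin above for 9.77% and below for 16.9%. Among the 15 matrix genes, skin lay above SDLN for 5 and below for 2. Of the 12 not called, Col10a1, Col15a1, Col23a1 and Col27a1 are among those that turned in direction under at least 1 alternative.

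**Figure D2:**
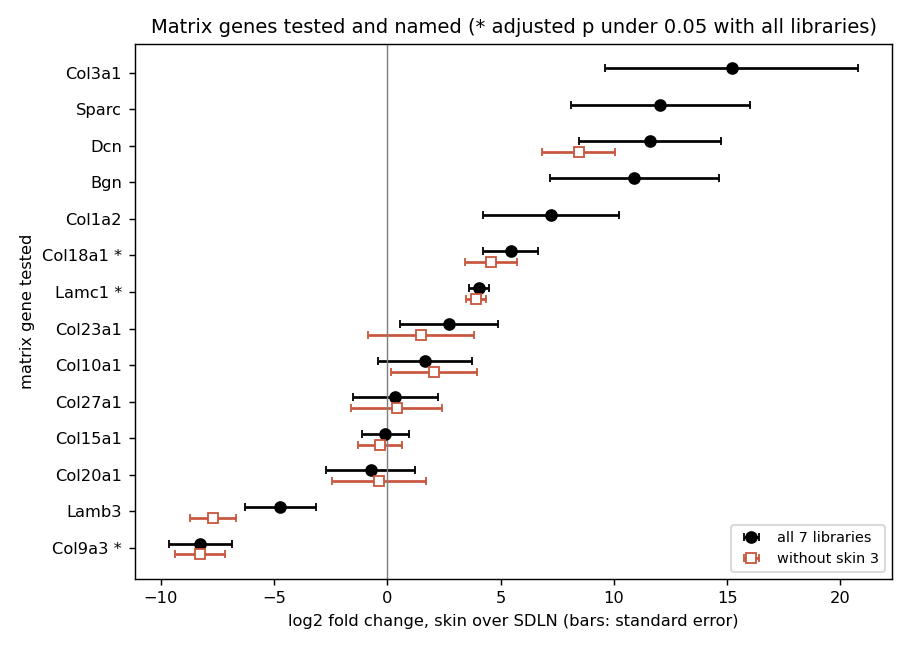
Log2 fold change of skin over SDLN (horizontal axis, bars show the standard error) for the matrix genes tested and named, with all 7 libraries (filled circles) and without skin 3 (open squares, where the gene was still tested). Asterisks mark Lamc1, Col18a1 and Col9a3, and the values of Col3a1, Dcn and Col9a3, absent from 1 tissue, depend on the small count added by the fit.

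Lamc1 (chromosome 1, 153218922 to 153332786, minus strand) held more counts than any other matrix gene in every library but skin 3. Its level was 17.2, 16.4 and 14.3 CPM in SDLN 1 to 3 and 175.3, 372.1, 322.1 and 174.9 CPM in skin 1 to 4. The tissues did not overlap, and skin 3 was not the highest. The mean was 261.1 ± 101.4 CPM (SD, n = 4) in skin, 16.4-fold higher than the 15.97 ± 1.47 CPM (SD, n = 3) of SDLN, with a log2 fold change of 4.05 (SE 0.42, edgeR adjusted p = 0.00388). It passed without skin 3 (adjusted p = 0.0131) and in each of the other fits made (adjusted p 2.81e-20 to 0.0460). The alpha and beta chains that would complete a laminin were not high with it. Outside skin 3, each skin library had at most 1 count of Lama2, Lama4, Lama5 and Lamb1 and none of Lama3 or Lamb2.

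Col18a1 (chromosome 10, 77052178 to 77166548, minus strand), a basement membrane collagen whose end fragment is endostatin, was also higher in skin. It was at 0.88, 0.97 and 0.62 CPM in SDLN and 25.7, 5.81, 82.5 and 28.1 CPM in skin 1 to 4. All 4 skin libraries lay above SDLN, and skin 2 was the lowest of them. The log2 fold change was 5.46 (SE 1.21), from 0.82 ± 0.18 CPM (SD, n = 3) to 35.5 ± 32.9 CPM (SD, n = 4), with an edgeR adjusted p of 0.0381. The call was lost without skin 3 (adjusted p = 0.0510) and without any 1 SDLN library (adjusted p 0.171 to 0.179), and adjusted p was 4.2e-07 to 0.358 over all alternatives. Col15a1, the related endostatin-bearing collagen, was at 5.22, 6.35 and 12.3 CPM in SDLN and 9.37, 4.12, 10.4 and 5.75 CPM in skin. The tissues overlapped for Col15a1 (log2 fold change -0.08, SE 1.04, edgeR adjusted p = 0.987).

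Col9a3, a chain of the cartilage collagen IX, had 37, 41 and 44 counts in SDLN and none in skin. From 2.91 ± 0.45 CPM (SD, n = 3), the SDLN mean, it was at least 11.8-fold lower in skin, with 3 counts in each skin library as the floor (edgeR adjusted p = 0.0381, and 0.00283 to 0.358 over the alternatives). Col9a3 entered the test on its SDLN counts alone, which fixed the direction, and was not called with no low-count filter (edgeR adjusted p = 0.152). It also did not pass without any 1 SDLN library (adjusted p 0.165 to 0.176). Its partner chain Col9a2 had 2 counts in all and Col9a1 none. Exons of Tcfl5 overlap Col9a3 on the other strand, and Tcfl5 had at most 2 counts in a library. Lamb3, the laminin-beta3 chain of the epidermal anchor laminin, showed the same order, at 23, 37 and 22 counts in SDLN and 0, 0, 3 and 0 in skin 1 to 4. It did not pass with all libraries (edgeR adjusted p = 0.143) and passed without skin 3 (adjusted p = 0.0257), over a range of 0.0221 to 0.412. Its SDLN counts alone brought Lamb3 into the test, which fixed the direction. With neither the low-count filter nor skin 3, the edgeR adjusted p was 0.0716.

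**Figure D3:**
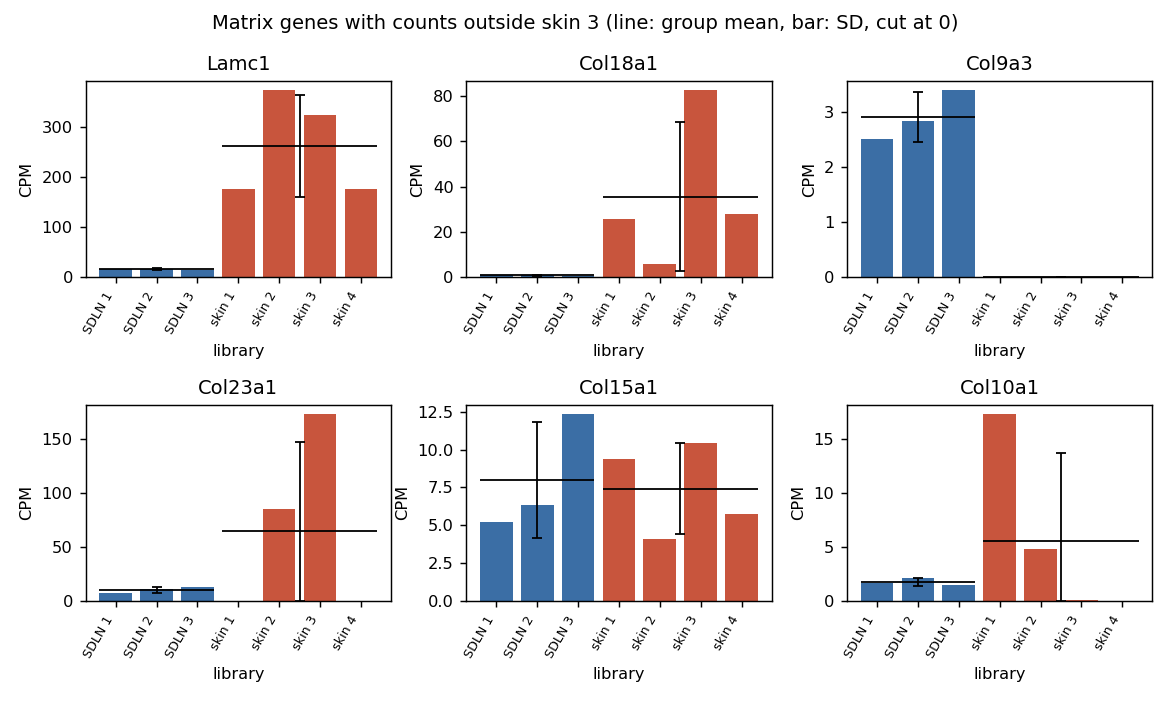
CPM by library for 6 matrix genes with counts outside skin 3. Coloured bars are libraries (blue SDLN, red skin), horizontal lines are group means and vertical lines are SDs, cut at 0. Lamc1 and Col18a1 lie higher in all skin libraries, Col9a3 is absent from skin, and Col15a1 overlaps between the tissues.

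Fibrillar collagens, the chains of dermal fibrils, summed to 0.85 to 3.73 CPM in SDLN, to 2.02, 3.71 and 5.33 CPM in skin 1, 2 and 4, and to 1911 CPM in skin 3, which held 99.4% of their skin CPM. Col3a1, the collagen III chain (chromosome 1, 45311538 to 45349706), had no count in SDLN and 10, 22, 16481 and 6 counts in skin 1 to 4. Every skin library thus had some Col3a1 and no SDLN library did. The skin mean of 347.8 ± 693.6 CPM (SD, n = 4) was at least 1626-fold higher than the SDLN floor with skin 3 and at least 4.86-fold higher without it, and the edgeR adjusted p was 0.219. Col1a2, a collagen I chain, was at 12, 6 and 1 counts in SDLN and 5, 13, 3019 and 2 in skin 1 to 4 (edgeR adjusted p = 0.248). Its partner Col1a1 had 1, 4 and 2 counts in SDLN and 6, 5, 1425 and 0 in skin. Collagen I counts outside skin 3 were therefore in the same low range in both tissues. Col5a2, which helps to set fibril width, had 1, 3, 1547 and 0 counts in skin and Col5a1 0, 2, 110 and 0, with none of either in SDLN. Col5a3 reached 10 counts and Col24a1 78 counts in skin 3, against at most 4 counts elsewhere.

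The balance of chains in skin 3 was uneven. Per kilobase of exon, Col3a1 stood at 141.4 CPM, 6.91 times Col1a2, and Col1a2 at 20.5 CPM was 1.12 times Col1a1. Col5a2 stood at 13.6 CPM per kilobase, 12.4 times Col5a1. The 2 collagen I chains were therefore near each other per length, and those of collagen V were not. Length here is the union of all annotated exons of a gene, 12.4 kb for Col1a2 and 6.56 kb for Col1a1. Without it the collagen I chains stood at 254.3 and 120.0 CPM, so their nearness depends on the length used. Col5a2 and Col5a1 stood at 130.3 and 9.27 CPM. Col11a2 was a small exception to the pattern, with 12, 9 and 2 counts in SDLN and 0, 0, 2 and 0 in skin. Col27a1, a fibrillar chain of cartilage, had 24, 23 and 5 counts in SDLN and 0, 0, 16 and 67 in skin, with no call (log2 fold change 0.37, SE 1.88, edgeR adjusted p = 0.961).

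Network collagens followed skin 3 through collagen IV and collagen VIII. Col4a1 had 0, 0, 2095 and 1 counts in skin 1 to 4 and Col4a2 0, 1, 981 and 0, with none in SDLN. These 2 genes lie head to head on chromosome 8, with GENCODE start sites at 11312826 and 11312805, so their annotated first exons overlap by 22 bases. Per kilobase in skin 3, Col4a1 at 23.6 CPM was 1.89 times Col4a2. The other collagen IV chains did not share this. Col4a4 had 8, 9 and 2 counts in SDLN and 0, 38, 22 and 0 in skin, highest in skin 2. Col8a1, a vessel wall collagen, had 1, 2, 248 and 0 counts in skin and none in SDLN.

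Col10a1, a chain of hypertrophic cartilage, went the other way within skin. It had 24, 31 and 19 counts in SDLN and 188, 60, 1 and 0 in skin 1 to 4, so skin 1 was the highest and skin 3 and 4 lay below SDLN. The edgeR fit gave a log2 fold change of 1.67 (SE 2.06, adjusted p = 0.778). Exons of Nt5dc1 overlap Col10a1 on the other strand, and Nt5dc1 had 2494, 2390 and 2179 counts in SDLN and 970, 1296, 926 and 1466 in skin. Without a stated strand setting, reads of these 2 genes cannot be told apart.

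Collagen VI was present in skin 3 with 1 chain nearly missing. Col6a1 had 1, 1, 1018 and 0 counts in skin 1 to 4, Col6a3 169, 1, 2680 and 0, and Col6a2 0, 2, 20 and 1. SDLN had none of Col6a1 or Col6a3 and 6, 0 and 3 counts of Col6a2. Per kilobase in skin 3, Col6a1 at 19.6 CPM and Col6a3 at 18.9 CPM were near each other, and Col6a1 was 96.8 times Col6a2 at 0.20 CPM. The Col6a3 counts of skin 1 had no counterpart in Col6a1. Col6a6 reached 40 counts and Col7a1, the anchoring fibril collagen, 53 counts in skin 3, against at most 4 elsewhere. Col6a4 had 2, 2 and 15 counts in SDLN and none in skin.

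Skin 3 held 66.1% of the skin CPM of fibril-associated collagens and 68.4% of that of membrane collagens. These shares were below those of the fibrillar collagens, the network collagens and the collagen VI group, through Col20a1 and Col23a1. The endostatin collagens, Col15a1 and Col18a1, had a lower share still, at 54.1%. Col12a1 had 1, 1, 92 and 0 counts in skin 1 to 4, and Col16a1 (12 counts) and Col19a1 (37 counts) were found in skin 3 alone. Col20a1 had 30, 31 and 47 counts in SDLN and 0, 74, 3 and 0 in skin, highest in skin 2 (log2 fold change -0.73, SE 1.97, edgeR adjusted p = 0.914). Among membrane collagens, Col13a1 had 37 counts in skin 3 alone, and Col17a1, of the keratinocyte hemidesmosome, had 115 there, 12 in SDLN 1 and 5 in skin 4. Col23a1, another membrane collagen, had 104, 154 and 167 counts in SDLN and 0, 1061, 2058 and 2 in skin. It was thus present in all SDLN libraries, far higher in skin 2 and 3 and nearly absent from skin 1 and 4 (log2 fold change 2.71, SE 2.17, edgeR adjusted p = 0.616).

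Laminin chains other than Lamc1 split by library. Lama2, the alpha chain of muscle and dermal laminin, had 0, 1, 2320 and 0 counts in skin 1 to 4, and Lama4, of vessel walls, 0, 1, 587 and 0, with none in SDLN. Lamb1 had 0, 1, 1401 and 0 in skin and 1 count in SDLN, and Lamc3 had 927 counts in skin 3 and none elsewhere. In skin 3, Lamc1 was 3.04 times Lamc3, Lama2 was 2.92 times Lama4 and Lamb1 was 6.93 times Lamb2, each per kilobase. Chains of epidermal laminin were lower there, with 59 counts of Lama3 and 3 of Lamb3. Lama5 had 2, 4 and 23 counts in SDLN and 191 in skin 3, and Lamb2 17, 7 and 7 in SDLN and 124 in skin 3.

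**Figure D4:**
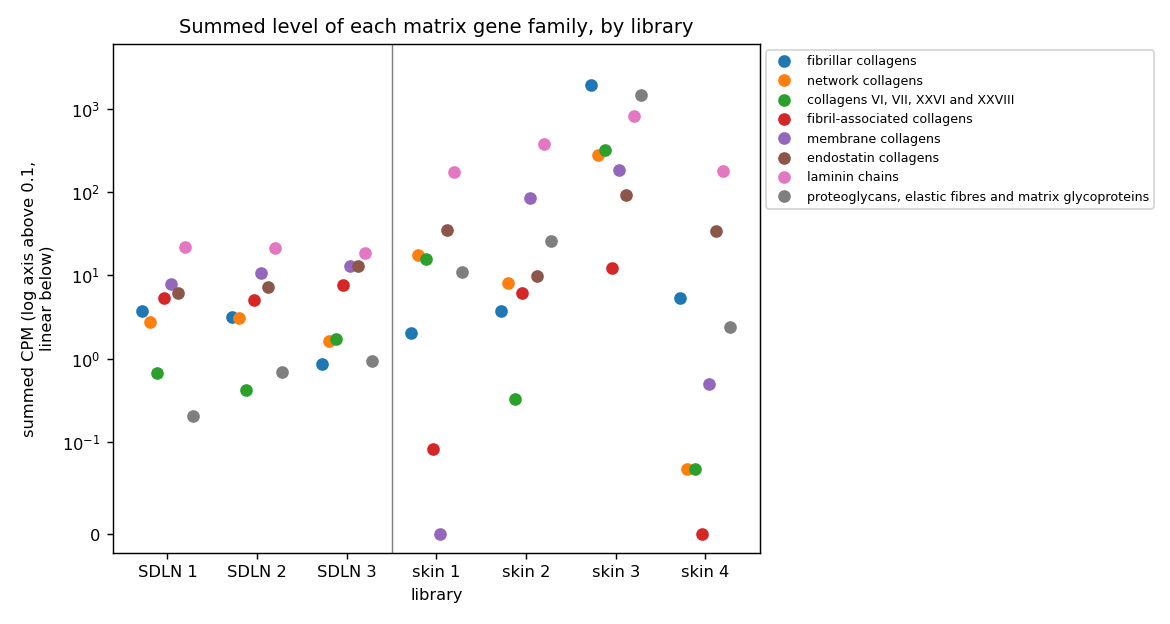
Summed CPM of each matrix gene family by library, on an axis that is logarithmic above 0.1 CPM and linear below. Fibrillar collagens rise to 1911 CPM and the proteoglycan, elastic fibre and glycoprotein group to 1467 CPM in skin 3. Laminin chains, with Lamc1 included, are above SDLN in all 4 skin libraries. Their sums in skin 1, 2 and 4 are 175.3, 372.6 and 177.3 CPM, of which Lamc1 is 175.3, 372.1 and 174.9 CPM. The other laminin chains together lie below SDLN in these libraries.

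Among proteoglycans and matrix glycoproteins, Dcn was the gene found in every skin library and in no SDLN library. Dcn (decorin) was at 6.89, 0.89, 104.8 and 2.06 CPM in skin 1 to 4. Its mean of 28.7 ± 50.8 CPM (SD, n = 4) was at least 134-fold higher than the SDLN floor, and at least 15.3-fold higher without skin 3. The edgeR adjusted p was 0.102 with all libraries, 0.0440 without skin 3, and 0.00158 to 0.284 over all alternatives. With no count in SDLN, Dcn entered the test through skin alone, which fixed the direction. With neither the low-count filter nor skin 3, the edgeR adjusted p was 0.0829. Sparc, a collagen-binding glycoprotein, had 0, 0 and 2 counts in SDLN and 17, 35, 11068 and 3 in skin (edgeR adjusted p = 0.134). Bgn (biglycan), the close relative of decorin, had 0, 0 and 1 counts in SDLN and 10, 20, 2929 and 0 in skin (edgeR adjusted p = 0.152). Sparc at 246.1 CPM per kilobase was the highest matrix gene of skin 3 by length, Bgn at 40.5 was 2.25 times Dcn, and Dcn was 12.4 times Lum.

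Fn1 differed from this group. Fibronectin had 2, 6 and 6 counts in SDLN and 6, 217, 137 and 0 in skin 1 to 4, so skin 2 was the highest. Postn (periostin) had 8, 23, 1056 and 0 counts in skin and Fbn1 (fibrillin of elastic fibres) 3, 8, 894 and 0. Lum and Eln were low even in skin 3, at 42 and 47 counts. Mgp had 3 counts at most in any library and none in skin 3.

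The rest of the matrix pathway was read from 4 lists. Of 31 enzymes and chaperones of collagen assembly, 12 were tested and none was called by edgeR, with 2 higher and 1 lower at an unadjusted p under 0.05, 1 higher and 0 lower by DESeq2 and none by limma-voom. Their median log2 fold change was 0.45, and without skin 3 it turned to -0.04. Loxl4, a lysyl oxidase that cross-links collagen, was then called lower (edgeR adjusted p = 0.0320), with 28, 23 and 15 counts in SDLN and 1, 3, 0 and 1 in skin, and was chosen here after its values were seen. Loxl4 passed the filter through SDLN alone, which fixed its direction. With neither the filter nor skin 3, none of these enzymes and chaperones was called lower. Their summed level was 526.7 to 736.3 CPM in SDLN, 700.5, 847.4 and 790.4 CPM in skin 1, 2 and 4 and 1932 CPM in skin 3. P4hb, the most abundant, is a general protein-folding enzyme and was at 223.7 ± 112.9 CPM (SD, n = 3) and 284.5 ± 139.9 CPM (SD, n = 4). Serpinh1, the collagen chaperone HSP47, had 11, 0 and 0 counts in SDLN and 6, 3, 3758 and 0 in skin, and was chosen here after its values were seen.

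Of 53 other matrix proteins, 11 were tested, 1 was higher and 1 lower, with a median log2 fold change of 1.19. Without skin 3, 10 were tested, 1 was higher and 3 lower, with a median of 0.54. The lower ones were Ecm1, Efemp2 and Emilin1, and the last 2 then had at most 1 count in a skin library and had passed the filter through SDLN alone. Lgals1, a galectin that T cells themselves make, rose in skin from 192.9 ± 66.7 CPM (SD, n = 3) to 1019 ± 564.5 CPM (SD, n = 4) (log2 fold change 2.41, edgeR adjusted p = 0.0381). Ecm1, a secreted glycoprotein also made by T cells, fell from 589.7 ± 93.9 CPM (SD, n = 3) to 187.2 ± 87.4 CPM (SD, n = 4) with a log2 fold change -1.64, edgeR adjusted p = 0.0381. Both passed without skin 3 (adjusted p = 0.0276 and 0.0416), and neither was called without any 1 SDLN library, without skin 4, with no low-count filter or with the replicate number as a block. Ecm1 was also not called without skin 2.

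Of 36 proteases and inhibitors, 14 were tested, 1 was higher and 1 lower, with a median log2 fold change of 0.61. Without skin 3, 2 were higher (Adam8 and Mmp9) and 1 lower, with a median of 0.16. Adam8, a membrane protease of leukocytes, rose from 9.12 ± 5.12 CPM (SD, n = 3) to 175.2 ± 39.9 CPM (SD, n = 4) with a log2 fold change 4.28, edgeR adjusted p = 0.00674, with all skin libraries above SDLN. Mmp15, a membrane-anchored metalloprotease, had 53, 82 and 54 counts in SDLN and none in skin (edgeR adjusted p = 0.0381). It passed the filter through SDLN alone, which fixed the direction, and it was not called with no low-count filter or at a mean of at least 5 CPM. Adam8 was not called without SDLN 2, nor Mmp15 without any 1 SDLN library. With the replicate number as a block, neither was called. The most abundant, Adam19, was at 168.7 ± 7.38 and 245.3 ± 96.0 CPM (edgeR adjusted p = 0.506).

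Of 30 receptors, 21 were tested, 4 were higher and 0 lower by edgeR, with 7 and 1 at an unadjusted p under 0.05, 8 and 0 by DESeq2 and 3 and 0 by limma-voom, and their median log2 fold change was 0.37. The shares over all genes by each of these rules are those given with the matrix genes. Without skin 3, 18 were tested, 4 were higher and 2 lower, and the median was 0.14. The 2 lower were Itga9 and Itga11, integrin alpha chains (edgeR adjusted p = 0.0257 and 0.0289), which had counts in skin 3 and in no other skin library and so then passed through SDLN alone. Cd44, the hyaluronan receptor, rose from 309.9 ± 5.66 CPM (SD, n = 3) to 1658 ± 205.0 CPM (SD, n = 4) with a log2 fold change 2.44, edgeR adjusted p = 0.00173. Itgav, the integrin-alphaV chain, was at 34.7 ± 3.70 and 207.4 ± 63.0 CPM (edgeR adjusted p = 0.0115). Sdc4, a heparan sulphate proteoglycan, was at 96.1 ± 13.2 and 810.0 ± 435.4 CPM (edgeR adjusted p = 0.0177), and Itgb8, which pairs with Itgav, at 24.5 ± 2.43 and 136.3 ± 69.3 CPM (edgeR adjusted p = 0.0354). These 4 receptors were higher in all 4 skin libraries and passed without skin 3 (adjusted p 0.00614 to 0.0259). Without any 1 SDLN library, or with the replicate number as a block, 1 receptor was called. Unlike Col3a1 or Sparc, these receptors were not highest by far in skin 3, where Cd44 was at 1623 CPM against 1446 to 1939 CPM in the other skin libraries.

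Markers of other cells that the sort could hold moved with the matrix genes in skin 3, and their part in the result was not tested. Of 24 fibroblast markers, 5 were tested and none was called by edgeR or limma-voom (1 higher at an unadjusted p under 0.05 and 1 by DESeq2). They summed to 36.6 to 70.6 CPM in SDLN, 62.9, 28.2 and 22.5 CPM in skin 1, 2 and 4 and 652.6 CPM in skin 3. In SDLN most of this was Sfrp2, at 23.8 to 54.9 CPM, and Sfrp2 was at 22.3, 5.81, 37.1 and 1.07 CPM in skin 1 to 4. Pdgfra, the defining receptor of fibroblasts, had 0, 1, 486 and 1 counts in skin and none in SDLN. In skin 3, 19 of the 24 markers were detected, and Twist2, Clec3b, Lox, Tcf21 and Pi16 were at 0.

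Keratinocyte markers moved with skin 3 as well. They summed to 17.1 to 17.8 CPM in SDLN, 87.0, 102.8 and 114.3 CPM in skin 1, 2 and 4 and 1865 CPM in skin 3. Of 18, 7 were tested, Epcam was higher (3.14 ± 0.79 and 37.9 ± 16.1 CPM, edgeR adjusted p = 0.0381) and Krt10, of the upper epidermis, lower, with 39, 35 and 33 counts in SDLN and 1 in skin. Krt17, the most abundant and a keratin of the hair follicle, had 6153 counts in skin 3 and none in the other skin libraries, and Krt1 and Lor, of the upper epidermis, were at 0 there. Markers of endothelium summed to 389.7 to 548.1 CPM in SDLN and to 16.2, 43.2, 176.6 and 45.5 CPM in skin, mostly Pecam1 outside skin 3, which T cells also express and which fell in skin (log2 fold change -3.58, edgeR adjusted p = 0.00857). Of 12 endothelial markers detected, 9 were highest in skin 3. Lyve1 had 809 counts there, Egfl7 158, Prox1 145, Cdh5 88, Plvap 78, Eng 43, Emcn 34 and Cldn5 30. In the other skin libraries these 8 were at 0, apart from 61 counts of Prox1 in skin 4. Kdr, Tie1, Vwf, Esam and Flt4 were at 0 in skin 3. Pericyte and smooth muscle markers summed to 7.87 to 8.48 CPM in SDLN and to 57.1 CPM in skin 3 and at most 17.6 CPM in the other skin libraries, and none of 3 tested was called by edgeR, DESeq2 or limma-voom, or at an unadjusted p under 0.05.

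Immune cell markers had another order. Macrophage markers summed to 15.5 to 25.5 CPM in SDLN and 187.1, 207.8, 193.1 and 643.1 CPM in skin, with 1 of 7 tested called higher (Lyz2). Dendritic cell markers summed to 329.9 to 528.1 CPM in SDLN and 3051, 2575, 619.5 and 10010 CPM in skin. Of 7 tested, 3 were called higher (H2-Ab1, H2-Aa and Cd209a), against 3.28% of all tested genes. Cd209a had 5, 1 and 0 counts in SDLN and passed the filter through skin alone, which fixed its direction. Skin 4, with the least matrix RNA of the skin libraries, was the highest for both, and skin 3 was the lowest skin library for the dendritic list. Lymph node stromal markers reached 1114 CPM in skin 3 through Enpp2 alone (1112 CPM), with Ccl19, Ccl21a, Cxcl13, Madcam1 and Fmod at 0 there. Adipocyte markers reached 202.2 CPM in skin 3, mostly Fabp4 (182.7 CPM), with Adipoq, Plin1, Cfd, Lep, Pck1 and Cidec at 0. Adipoq and Cxcl13 were called lower in skin, as was Cpa3 among 3 tested mast cell markers, and all 3 had counts in SDLN only. These 3 and Krt10 entered the test on their SDLN counts alone, which fixed their direction, and without that filter none of their lists had a gene called lower. Without skin 3, 2 adipocyte, 3 lymph node stromal and 2 Schwann cell and melanocyte markers were called lower, and 2 keratinocyte and 4 dendritic cell markers higher. These lower ones and, of the higher ones, Krt79 and Cd209a then passed the filter through 1 tissue alone, which fixed their direction. With no low-count filter, the calls over all marker lists were 1 dendritic cell and 1 T cell marker higher and 1 endothelial marker lower. Mast cell markers summed to at most 26.1 CPM in a library, Schwann cell and melanocyte markers to at most 60.6 CPM and skeletal muscle markers to at most 35.0 CPM. Of the T cell list, Ctla4 and Ikzf2 were higher and Lck lower in skin. With any 1 SDLN library left out, no marker outside the T cell list was called, apart from Pecam1 without SDLN 3.

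**Figure D5:**
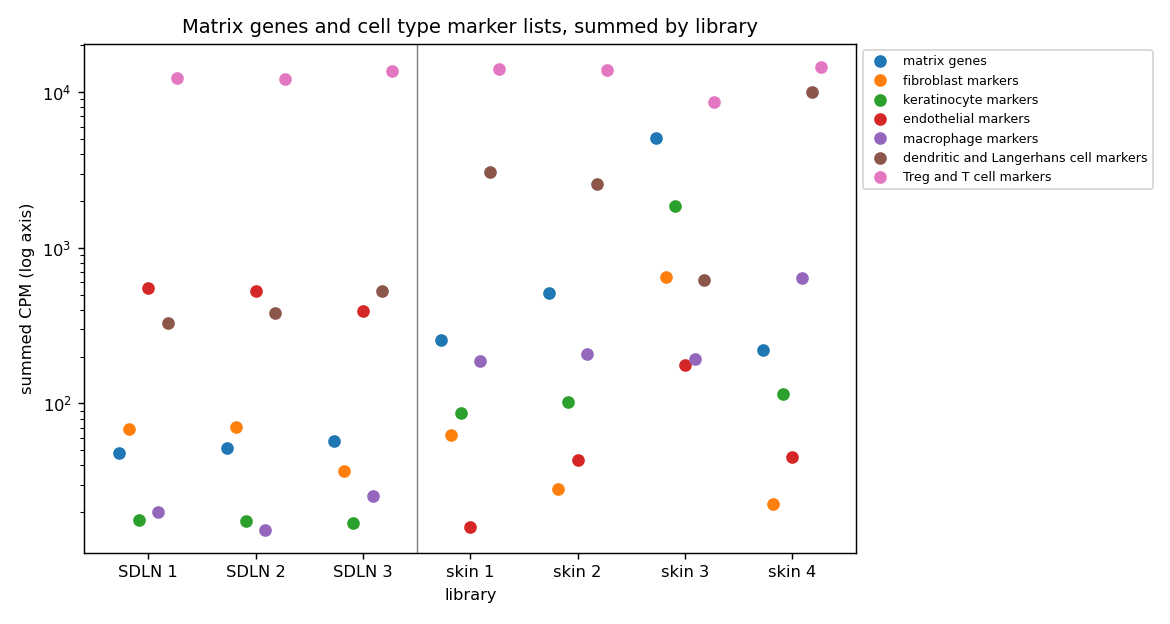
Summed CPM of matrix genes and of cell type marker lists by library, on a log axis. Matrix genes, fibroblast markers and keratinocyte markers reach their maximum in skin 3 (5086, 652.6 and 1865 CPM), where T cell markers have their minimum (8597 CPM).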

How the data were processed

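Messenger RNA of 7 libraries of sorted Tregs was sequenced after SMARTer ultra low input cDNA synthesis, per the labels' protocols. The table deposited by the authors holds raw counts by gene, with no scaling. The submitters' processing notes name the counter HTSeq 0.6.1, the aligner TopHat2 2.0.12 with Bowtie2 2.1.0.0, and also SAMtools 0.1.19.0, CASAVA 1.8.2 and build mm10. Annotation and strand setting are not given in the sources used. Summary lines stayed out of library sizes. They held 61.2% to 70.4% of the table for multiple alignments, 10.0% to 17.1% for reads outside genes and 0.365% to 0.468% for ambiguous reads.

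Genes were kept with filterByExpr (minimum count 10) of edgeR 4.0.16 in R 4.3.3, scaled by TMM and tested with the robust quasi-likelihood test with tissue as the sole term, two-sided. The p-values were adjusted by Benjamini-Hochberg over all 11376 genes tested. CPM used TMM-scaled library sizes. A gene without a count in a tissue was given a fold bound from 3 counts per library. Wilson 95% intervals came from scipy 1.17.1 in Python 3.11.15. Coordinates and exon lengths are from GENCODE on GRCm38, and promoters from RefSeq on GRCm38.p6. An exon length is the union of all annotated exons of a gene, so values per kilobase depend on that annotation. Motif searches covered 250 bases before each start.

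Named were all matrix genes tested or with at least 10 counts in a library, except 1 that is counted in the totals but not reported here, and of each other list the called members, if 5 or fewer, and the most abundant. The members and lists were chosen with earlier results of these data known. Alternatives were DESeq2 1.42.0, RLE, upper-quartile and no scaling, a minimum mean of 5 CPM, no low-count filter, limma-voom (limma 3.58.1) with and without sample weights, no robust estimation, a replicate block, an adjusted p under 0.01 and each library left out. The fit without both the filter and skin 3 was added after seeing the data.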

Additional observations from a re-analysis of the deposited data

Results flagged for a closer look

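Within the 4 skin libraries, a value was marked when the highest or lowest library stood apart from the nearest other by a share of the whole range above Dixon's 95% critical value for 4 samples. For normally distributed values chance marks about 1 group in 20. The CPM used were not log-transformed, so this rate need not hold for them. It does not hold for low counts, where 3 libraries at 0 and any count in the fourth give a mark. Krt10 was marked on 1 count, Col11a2 on 2 and Lamb3 on 3. Of 45 named matrix genes with a count in skin, 37 were marked, 36 of them for a high skin 3 and 1, Col20a1, for a high skin 2 (5.97 CPM). Among all 13216 genes with at least 10 counts in a library and a count in skin, 28.8% were marked, and 15.2% for a high skin 3. No explanation of this was tested.

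Among fibrillar collagens, the CPM in skin 3 was 1388 for Col3a1, with Col1a2 at 254.3, Col5a2 at 130.3, Col1a1 at 120.0, Col5a1 at 9.27, Col24a1 at 6.57, Col5a3 at 0.842 and Col11a2 at 0.169. Network collagens marked in skin 3 were Col4a1 at 176.5, Col4a2 at 82.6 and Col8a1 at 20.9 CPM. Collagens VI and VII marked there were Col6a3 at 225.7, Col6a1 at 85.8, Col7a1 at 4.46, Col6a6 at 3.37 and Col6a2 at 1.69 CPM. Fibril-associated and membrane collagens marked there were Col17a1 at 9.69, Col12a1 at 7.75, Col19a1 at 3.12, Col13a1 at 3.12 and Col16a1 at 1.01 CPM. Laminin chains marked there were Lama2 at 195.4, Lamb1 at 118.0, Lamc3 at 78.1, Lama4 at 49.4, Lama5 at 16.1, Lamb2 at 10.4, Lama3 at 4.97 and Lamb3 at 0.253 CPM. Of the remaining matrix genes, Sparc at 932.3, Bgn at 246.7, Dcn at 104.8, Postn at 89.0, Fbn1 at 75.3, Eln at 3.96 and Lum at 3.54 CPM were marked in skin 3. The skin libraries other than skin 3 reached at most 15.5 CPM for any of these 36 genes.

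By family, skin 3 was marked for fibrillar collagens (1911 summed CPM), network collagens (282.2), the group with collagens VI and VII (321.0) and proteoglycans with elastic fibres and glycoproteins (1467). Of 17 list sums, 8 were marked. Skin 3 was high for matrix genes (5086 summed CPM), collagen assembly (1932), fibroblast (652.6), keratinocyte (1865), adipocyte (202.2) and lymph node stromal markers (1114). It was low for T cell markers (8597 summed CPM), and skin 4 was high for macrophage markers (643.1 summed CPM).

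Of 28 list genes, 6 were marked. They were Enpp2 (1112 CPM), Krt17 (518.3), Fabp4 (182.7) and Krt10 (0.0842, a single count) in skin 3, and Cd209a (263.9) and Mylpf (22.5) in skin 4. A further 5 genes were picked because they were high in skin 3 alone, so their mark was fixed by that choice. They were Wif1 (2127 CPM) and Sfrp1 (723.5), secreted inhibitors of Wnt signalling, the gap junction protein Gja1 (1241), the glycoprotein Fstl1 (987.9) and the activin subunit Inhba (705.7).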

How the results depend on the processing

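The share of counts in matrix genes kept its order of tissues when libraries were left out, with a mean of 0.00504% to 0.00545% in SDLN and 0.0322% to 0.208% in skin, the lowest without skin 3. Of 236 refits of the named matrix genes tested, 195 kept direction and side of the threshold, 17 lost and 9 gained a call, and 15 reversed. Genes higher in skin numbered 373, and 188 without the low-count filter, 206 without filter and skin 3, 923 with DESeq2, 757 with limma-voom sample weights, 44 with the replicate block, 72 at an adjusted p under 0.01 and 33 to 582 with a library left out. Genes lower numbered 451, and in the same order 70, 75, 507, 985, 12, 16 and 9 to 822, with 99 at a mean of at least 5 CPM and 729 with limma-voom. The cause of these shifts was not tested. Matrix genes higher numbered 2, and 1 without the filter, with or without skin 3, at 5 CPM and at 0.01, 5 with sample weights, 3 with the replicate block and 1 to 2 with a library left out. Matrix genes lower numbered 1, and 0 in each of these fits but sample weights (2) and left-out libraries (0 to 2), and 0 with DESeq2, which gave no adjusted p for Col3a1, Dcn or Sparc. Under the replicate block Col18a1 and Col9a3 did not pass (adjusted p = 0.358 for both), and Lamc1, Col3a1 and Sparc did (0.0355, 0.0332 and 0.0144). Of these, Col3a1 and Sparc entered the test through skin alone, which fixed their direction. Same-numbered libraries had deviations correlated at 0.0672, -0.0018 and -0.0402. Whether they share animals is not stated in the sources used, and so few pairs cannot settle it. Log2 fold changes that reversed belonged to uncalled genes. For Col27a1 they were -1.67 with limma-voom, -0.86 with sample weights, -4.26 with the replicate block, -0.07 without SDLN 3 and -1.39 without skin 4 (-1.39 to 0.78 with a library left out). For Col10a1 they were -1.09, -2.63 and, without skin 1, -0.081 (-0.081 to 2.08 with a library left out), and for Col23a1 -1.57 and -1.35 with limma-voom and sample weights. Col15a1 turned to 0.25 with sample weights, 0.012 with the replicate block and 0.37 without SDLN 3 (-0.32 to 0.37 with a library left out). Depth limits a matrix gene with no count to about 0.203 to 0.276 CPM per library.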

Other observations

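Genes of the hair follicle were among those found almost wholly in skin 3, and were named after their values were seen. Krt71, a keratin of the inner root sheath, had 7823 counts in skin 3, 1 in skin 4 and none elsewhere. Corin, a membrane protease known from the dermal papilla, had 5766 counts there, 2, 26 and 15 in SDLN and none in the other skin libraries. Hhip, an inhibitor of hedgehog signalling, had 6785 counts in skin 3 and none elsewhere. Their relation to the matrix genes was not tested.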
